A study of Homo sapiens with 42 samples.

Results

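The genes RAVER2, KIF21A, CD2AP and RAP2A were chosen by measured values, because their mRNA differences stood among the highest in HL-60 cells given the EZH2 inhibitor GSK-343 (spelled GSK343 in the sample labels), and because RAVER2 and KIF21A were also higher after EZH2 knockdown (KD) than with a non-targeting shRNA. They are 4 of the 18417 genes that had a probe set of 1 symbol on the array, and each of the 4 had a single probe set. HL-60 is a human acute myeloid leukemia line, and 14 groups of it were profiled in biological triplicate, by the design text, on 42 arrays of the Affymetrix type Human Gene 1.0 ST. The p-values below measure the spread between these arrays. In the inhibitor experiment (18 arrays, 6 groups), cells were left untreated or received 10 µM GSK-343, which competes with the methyl donor of EZH2, or 2.5 µM HKMTI-1-005, a dual inhibitor of G9a and EZH2, each without and with 0.1 µM all-trans retinoic acid (ATRA) for 3 days. In the KD experiment (24 arrays, 8 groups), untransduced cells, cells with the non-targeting shRNA (Scr) and cells with either of 2 EZH2 shRNAs (shEZH2#1, shEZH2#2) were each kept without and with 0.1 µM ATRA. The transduced cells were puromycin-selected populations carrying a lentiviral hairpin, so that each hairpin stands for 1 sequence and its 3 arrays for repeats of it.

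EZH2 is the enzyme of the Polycomb repressive complex PRC2 that methylates histone H3 at lysine 27, a mark of silenced genes. ATRA is the ligand of the retinoic acid receptors and drives HL-60 cells towards granulocytes. RAVER2 encodes an RNA-binding protein that partners the splicing repressor PTB, KIF21A a kinesin motor that restrains microtubule growth, CD2AP an SH3 adaptor that links receptors and endocytosis to actin, and RAP2A a small GTPase of the RAS family that acts on the actin cytoskeleton through kinases such as TNIK.

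The arrays bore the marks of the labelled cells. All 10 measured markers of promyelocytes and granulocyte precursors lay in the brightest 40% of genes, against 0 of 4 erythroid, 0 of 3 megakaryocyte, 0 of 4 lymphoid and 0 of 5 fibroblast and epithelial markers. EZH2 itself was lower with KD (9.28 ± 0.220, SD, n = 6) than with Scr (10.36 ± 0.0943, n = 3), a log2 difference of -1.08 (limma adjusted p = 1.72e-05) and lower than in untransduced cells (-0.74, adjusted p = 0.00475). With ATRA its differences from the same controls were -0.78 and -0.90 (adjusted p = 0.000652 and 0.000149). GSK-343 left EZH2 mRNA at 9.74 ± 0.128 against 9.60 ± 0.0664 in untreated cells. In the KD experiment 6 arrays (Scr 1 and 2, Scr + ATRA 3, untransduced + ATRA 3, shEZH2#1 array 1 and shEZH2#2 array 2) had medians of 5.47 to 5.56, above the 5.31 to 5.44 of the other 18, and group differences of the 4 genes that rest on them are also given without them. All 4 EZH2 calls were kept without them, with differences from -1.14 (KD against Scr) to -0.77. Bulk arrays cannot tell fewer cells that express a gene from less RNA per cell.

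All 4 genes could be called, since each lay in the brightest 40% of genes that the study's filter keeps, but at different heights. Averaged over the 42 arrays, the log2 level was 9.13 for CD2AP (15.6% of genes were brighter), 8.00 for RAP2A (28.1%), 7.77 for KIF21A (30.7%) and 6.92 for RAVER2, which stood just inside the filter with 39.5% of genes brighter. The cut lay at 6.88, and the GSK-343 arrays, for which RAVER2 was chosen, entered its average with a mean of 7.63. Its place inside the filter thus leans on the arrays that chose it, and whether it would pass without them was not tested. Counts out of 4 and ranks among the 7367 genes hold RAVER2 under this limit. The arrays of a group differed least for KIF21A and CD2AP, with a residual SD of 0.12 each, against 0.17 for RAVER2 and 0.23 for RAP2A. Only 5.8% and 6.2% of the 7367 genes that could be called had a smaller residual SD than KIF21A and CD2AP. The level of 1 probe set was not set against that of another, so these heights are places on the array and not amounts of RNA.

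The bases just upstream of the 4 genes are shown because they are the sequences by which genes raised together can be compared, and because PRC2 is known to bind CpG-rich gene starts. They are the 250 bases before the RefSeq start of each gene (GRCh38.p14, written 5′ to 3′ along the gene), namely RAVER2 at chr1:64744825-64745074 on the plus strand, KIF21A at chr12:39443121-39443370 on the minus strand, CD2AP at chr6:47477539-47477788 on the plus strand and RAP2A at chr13:97433919-97434168 on the plus strand. Capitals mark GGGCGG or its reverse complement, the GC box.
RAVER2: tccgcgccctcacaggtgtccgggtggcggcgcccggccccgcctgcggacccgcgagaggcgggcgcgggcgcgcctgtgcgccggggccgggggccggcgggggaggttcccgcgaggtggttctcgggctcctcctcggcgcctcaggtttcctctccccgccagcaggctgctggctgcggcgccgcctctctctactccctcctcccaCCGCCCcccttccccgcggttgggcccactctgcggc
KIF21A: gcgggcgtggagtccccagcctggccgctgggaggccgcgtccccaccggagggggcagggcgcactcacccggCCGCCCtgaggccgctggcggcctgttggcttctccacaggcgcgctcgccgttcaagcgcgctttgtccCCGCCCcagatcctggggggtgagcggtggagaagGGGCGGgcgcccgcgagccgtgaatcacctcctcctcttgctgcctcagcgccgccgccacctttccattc
CD2AP: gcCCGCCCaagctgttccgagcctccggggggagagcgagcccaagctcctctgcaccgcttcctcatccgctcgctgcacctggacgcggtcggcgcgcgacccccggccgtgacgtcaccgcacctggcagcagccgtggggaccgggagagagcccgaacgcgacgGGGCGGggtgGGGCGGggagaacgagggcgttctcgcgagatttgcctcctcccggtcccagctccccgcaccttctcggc
RAP2A: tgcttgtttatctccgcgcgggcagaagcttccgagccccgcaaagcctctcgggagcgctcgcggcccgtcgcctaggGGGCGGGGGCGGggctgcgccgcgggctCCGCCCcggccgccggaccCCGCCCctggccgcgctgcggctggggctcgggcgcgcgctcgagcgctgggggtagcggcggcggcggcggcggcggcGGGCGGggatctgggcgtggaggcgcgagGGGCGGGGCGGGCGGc

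All 4 windows were rich in CG. They held 33 CG dinucleotides in RAVER2, 27 in KIF21A, 32 in CD2AP and 45 in RAP2A, against a median of 11 over 35116 RefSeq windows of the same length. Fewer were held by 91.9% of those windows for RAVER2, 82.3% for KIF21A, 90.5% for CD2AP and 99.4% for RAP2A. The windows are those of all RefSeq genes. Genes as bright as these 4 were not set apart, so the CG content is not shown to be particular to them. The GC box occurred on either strand in all 4, at 1 place in RAVER2, 3 in KIF21A, 3 in CD2AP and 8 in RAP2A. It occurred in 42.6% of all windows. The E-box CACGTG (6.34% of all windows), the nuclear receptor element AGGTCA (12.1%) and TATAAA (10.7%), each sought on both strands, had no match in these letters. A match is a description of the sequence and not a binding site.

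The largest difference with GSK-343 among the 4 genes was that of RAVER2. Without ATRA the RAVER2 log2 values were 7.47, 7.88 and 7.55 with GSK-343 and 6.81, 6.91 and 6.79 in untreated cells, a difference of 0.80 (standard error 0.14, 95% interval 0.52 to 1.07), or 1.74-fold. The GSK-343 arrays held the highest mean of any of the 14 groups for this gene, and no array of one group reached into the other. The difference ranked 6 of 7367 from the top. These values chose the genes, so they are given as a description with no test.

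KIF21A, CD2AP and RAP2A were also higher in every GSK-343 array than in every untreated one. KIF21A stood at 8.29, 8.38 and 8.19 against 7.90, 7.73 and 7.77, a log2 difference of 0.49 (standard error 0.10). CD2AP stood at 9.14, 9.39 and 9.42 against 8.89, 8.65 and 8.97, a difference of 0.48 (standard error 0.10). RAP2A stood at 8.56, 8.45 and 8.40 against 8.09, 7.76 and 7.81, a difference of 0.58 (standard error 0.18). Thus the groups did not overlap for 4 of 4 genes, where 11.7% of the 7367 genes lay wholly higher with GSK-343, and nothing is read from this count because the choice used it. When genes were ordered by adjusted p, RAVER2, KIF21A and CD2AP held the first 3 places. The choice used these values, so the places are no test. Limma called 1 of the 7367 genes higher in this contrast and 0 lower. Just outside the first 3 places stood ITM2A (1.17, standard error 0.24), PCGF5 (0.45, standard error 0.10) and RPL26L1 (0.45, standard error 0.10).

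The same 4 genes were higher with GSK-343 in the presence of ATRA, in a separate set of arrays that the choice also used. RAVER2 was 6.95, 6.89 and 7.44 with both agents and 6.40, 6.60 and 6.37 with ATRA alone, a log2 difference of 0.64 (standard error 0.14). Array 3 with both agents lay well above the other two, and without it the difference was 0.46. KIF21A was 7.82, 7.77 and 8.06 against 7.43, 7.44 and 7.19 (difference 0.53, standard error 0.10). RAP2A was 8.01, 7.88 and 8.14 against 7.56, 7.70 and 7.52 (0.42, standard error 0.18), and CD2AP 9.40, 9.43 and 9.36 against 9.17, 9.26 and 9.08 (0.23, standard error 0.10). CD2AP showed the smallest difference of the 4 here. The arrays with both agents lay wholly above those with ATRA alone for all 4 genes, as did those of 5.27% of the 7367 genes. By adjusted p KIF21A and RAVER2 came first, and GNPNAT1 (0.49, standard error 0.12) and B4GALT6 (0.51, standard error 0.13) stood just outside. This order is no test either, since the choice used the contrast. Limma called 1 of the 7367 genes higher in it and 0 lower.

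**Figure D1:**
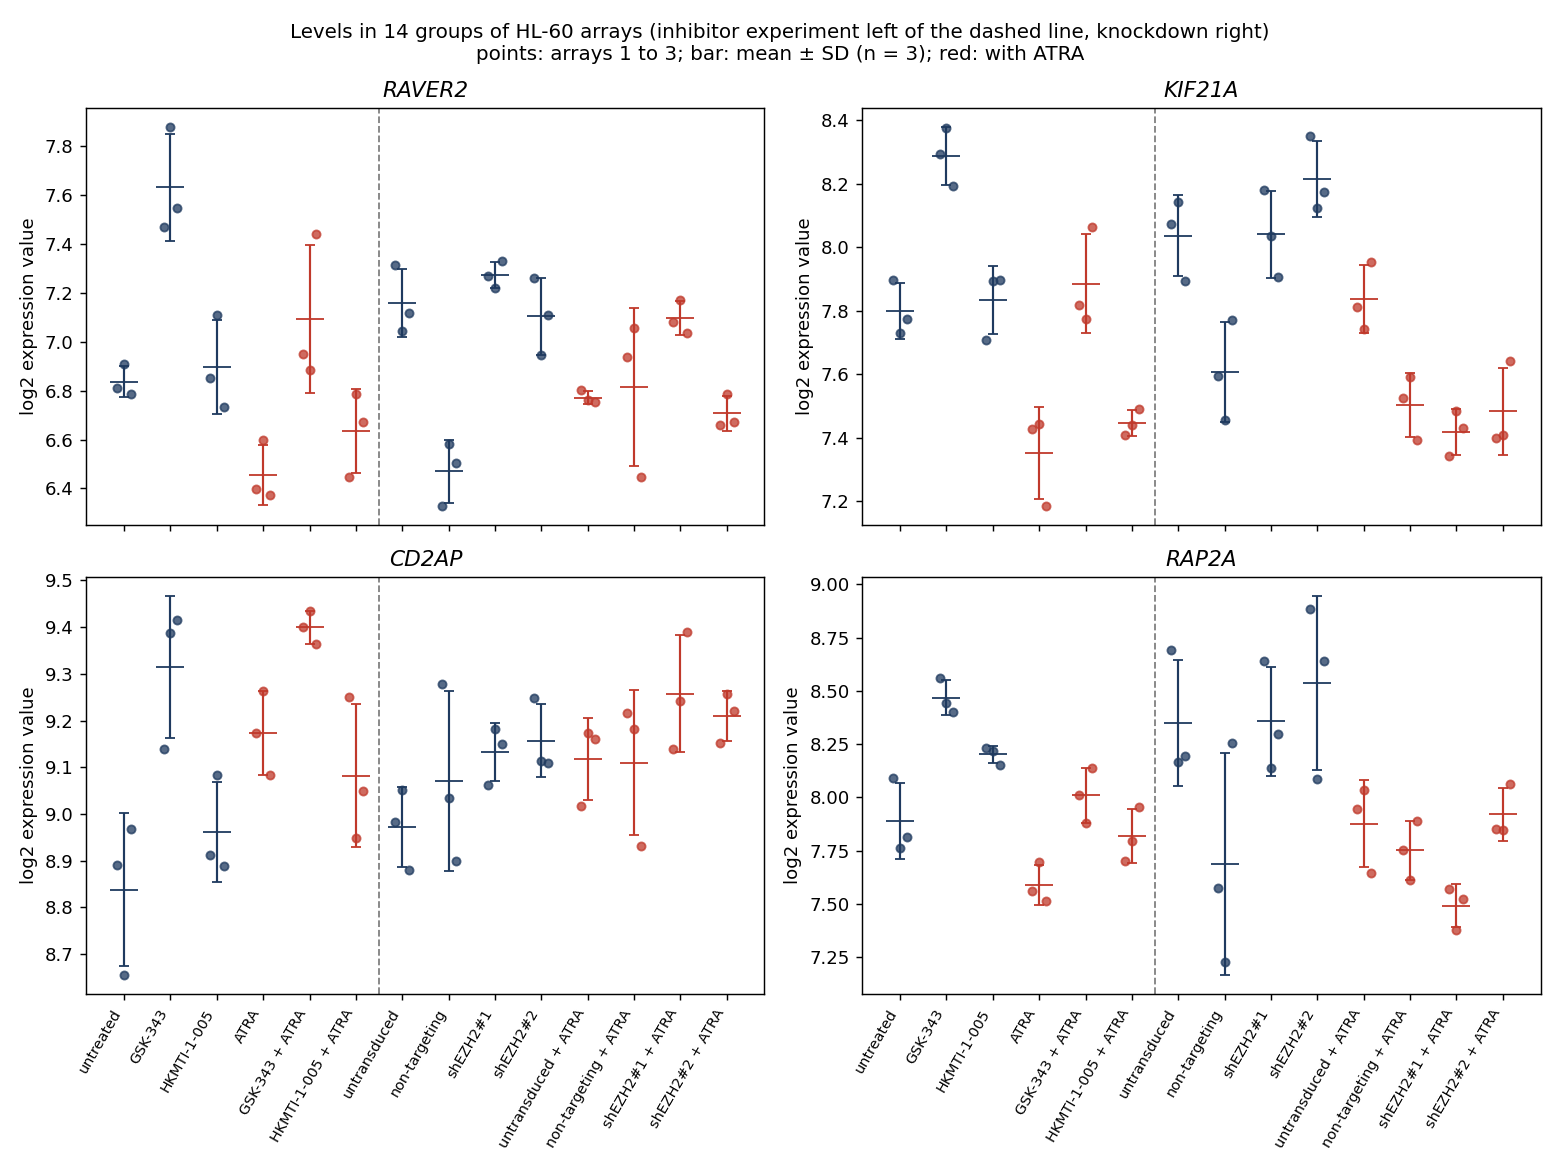
Log2 expression values of RAVER2, KIF21A, CD2AP and RAP2A (vertical axes, separate scales) in the 14 groups (horizontal axis), with points for arrays 1 to 3, a bar for the mean and whiskers for the SD (n = 3); groups with ATRA are red, and a dashed line parts the inhibitor from the KD experiment. RAVER2 and KIF21A have their highest mean with GSK-343 (7.63 and 8.29) and their lowest with ATRA alone (6.45 and 7.35), whereas CD2AP is lowest in untreated cells (8.84).

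With 2.5 µM HKMTI-1-005, which also targets EZH2, values are set beside those of 10 µM GSK-343 without a comparison, because the doses differ and because the controls are the same arrays. Against untreated cells the log2 difference was 0.06 for RAVER2 (95% interval -0.21 to 0.34), 0.03 for KIF21A (-0.16 to 0.23), 0.12 for CD2AP (-0.08 to 0.32) and 0.31 for RAP2A (-0.06 to 0.69). RAVER2 read 6.85, 7.11 and 6.73 and KIF21A 7.71, 7.89 and 7.90, both interleaved with the untreated arrays. RAP2A read 8.23, 8.22 and 8.15, above every untreated array, as 9.35% of genes did. Added to ATRA, HKMTI-1-005 gave differences of 0.18 for RAVER2, 0.09 for KIF21A, -0.09 for CD2AP and 0.23 for RAP2A, of which only RAP2A had groups that did not overlap (17.3% of genes lay wholly higher). No difference between the compounds was tested.

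With EZH2 KD without ATRA, the difference varied with the control for RAVER2, KIF21A and RAP2A. RAVER2 read 7.27, 7.22 and 7.33 with shEZH2#1 and 7.26, 6.94 and 7.11 with shEZH2#2, against 6.33, 6.58 and 6.50 with Scr, so that all 6 KD arrays lay above all 3 Scr arrays (log2 difference 0.72, standard error 0.12). Untransduced cells, however, read 7.32, 7.04 and 7.12, within the range of the KD arrays (0.03, 95% interval -0.21 to 0.27). KD thus stood above Scr and near the level of untransduced cells. The choice used the contrast with Scr, so low Scr values were favoured by it and cannot tell which control is apt.

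KIF21A showed the same layout. It read 8.18, 8.03 and 7.91 with shEZH2#1 and 8.35, 8.12 and 8.17 with shEZH2#2, against 7.59, 7.46 and 7.77 with Scr (0.52, standard error 0.08) and 8.07, 8.14 and 7.89 in untransduced cells (0.09, 95% interval -0.08 to 0.26). RAVER2 and KIF21A were thus the 2 of 4 genes whose KD arrays all lay above the Scr arrays, as did those of 3.86% of the 7367 genes, and the choice used this contrast. RAP2A differed from Scr by 0.76 (standard error 0.16), but its Scr arrays spread from 7.23 to 8.25 and the groups overlapped. Leaving out the Scr array at 8.25 raised the difference to 1.04, and leaving out the one at 7.23 lowered it to 0.53. CD2AP differed by 0.07 from Scr (standard error 0.08) and by 0.17 from untransduced cells, where all 6 KD arrays lay above the 3 controls (1.6% of genes did).

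Of the 3 Scr arrays without ATRA, 2 were among the 6 arrays of high median. Without those 6, which left a single Scr array, the difference of KD from Scr was 0.73 for RAVER2, 0.35 for KIF21A, 0.27 for CD2AP and 0.23 for RAP2A. The difference of KD from untransduced cells was then 0.07 for RAVER2, 0.08 for KIF21A, 0.20 for CD2AP and 0.14 for RAP2A. The median difference over the 7367 genes between KD and Scr was 0.13 with all arrays. The part of the array medians in these values was not tested.

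**Figure D2:**
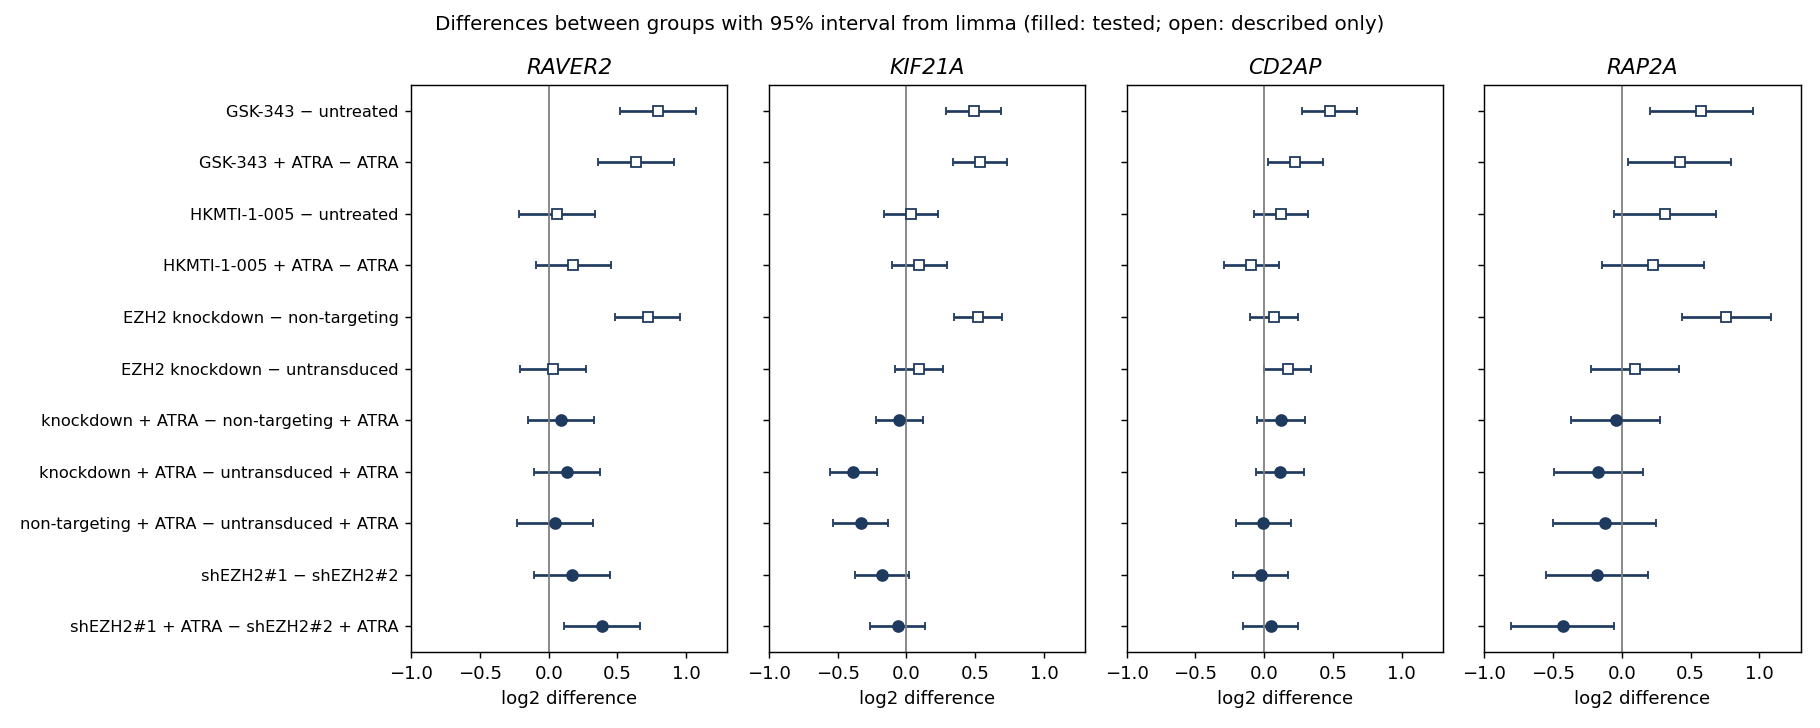
Log2 differences between groups (horizontal axes, point with 95% interval from limma) for the 4 genes in 11 comparisons (vertical axis), with filled circles for tested comparisons and open squares for those given as a description. RAVER2 and KIF21A differ from the control by 0.80 and 0.49 with GSK-343 and by 0.72 and 0.52 with KD against the non-targeting shRNA, but by 0.03 and 0.09 with KD against untransduced cells.

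The choice named KD but not KD with ATRA, which could therefore be tested with limma over all genes. Against Scr with ATRA, 0 of the 4 genes passed (0 also at an unadjusted p under 0.05), where 3.39% of the 7367 genes were called higher and 1.98% lower. The log2 differences were 0.09 for RAVER2 (95% interval -0.15 to 0.33), -0.05 for KIF21A (-0.22 to 0.12), 0.12 for CD2AP (-0.05 to 0.30) and -0.05 for RAP2A (-0.37 to 0.28). For RAVER2 the Scr arrays with ATRA read 6.94, 7.06 and 6.45, and without the last, an array of high median, the difference was -0.10. The other differences without the arrays of high median were -0.11 for KIF21A, 0.03 for CD2AP and 0.02 for RAP2A. Whether the KD difference itself changed with ATRA was not tested.

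Against untransduced cells with ATRA, KIF21A was lower with KD. It read 7.34, 7.48 and 7.43 with shEZH2#1 and 7.40, 7.41 and 7.64 with shEZH2#2, against 7.81, 7.74 and 7.95, with no overlap. The log2 difference was -0.39 (standard error 0.08, limma adjusted p = 0.00817), a fold of 1.31 that lay just past the threshold of 1.3. It was the 1 of the 4 genes called there, against 1.6% of genes called higher, 1.68% called lower and 4.93% wholly lower. Without the arrays of high median it was -0.33 with an adjusted p of 0.0508. The call was lost on leaving out untransduced + ATRA array 3 (-0.33, adjusted p = 0.143), and, through the fold alone, shEZH2#1 + ATRA array 1 or shEZH2#2 + ATRA array 1 or 2 (-0.37, -0.36 and -0.37), and with centring on array medians (-0.37, adjusted p = 0.0702). In the non-targeting cells with ATRA KIF21A read 7.52, 7.59 and 7.39, below every untransduced array. The difference, Scr + ATRA minus untransduced + ATRA, was -0.33 (standard error 0.10, limma adjusted p = 0.131). Without the arrays of high median it was -0.22 (adjusted p = 0.442). Between these controls 0 of the 4 genes were called, where 0.258% of genes were called higher, 0.733% were called lower and 6.73% lay wholly lower. An unadjusted p under 0.05 was held by 1 of the 4, and before adjustment 108 of the 7367 genes counted as higher and 357 as lower. The other three genes differed between KD and untransduced cells with ATRA by 0.13 (RAVER2), 0.12 (CD2AP) and -0.17 (RAP2A), with adjusted p of 0.747, 0.654 and 0.760, and by 0.12, 0.14 and -0.28 without the arrays of high median. In the same comparison 3 of 10 precursor markers were called higher, and their part in the KIF21A value was not tested.

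The hairpins were then set against each other, which asks whether KD values stand for both sequences. Without ATRA, 0 of the 4 genes passed (0 at an unadjusted p under 0.05; 0.38% of genes were called higher and 0.122% lower), with differences from -0.18 (RAP2A) to 0.17 (RAVER2). Without the arrays of high median, 1 of each hairpin, they were 0.09 for RAVER2, -0.29 for KIF21A, -0.01 for CD2AP and -0.54 for RAP2A (adjusted p = 0.127), and 0 were called. With ATRA, RAVER2 read 7.08, 7.17 and 7.04 with shEZH2#1 and 6.66, 6.79 and 6.67 with shEZH2#2, and RAP2A read 7.57, 7.38 and 7.52 against 7.85, 7.85 and 8.07. Neither pair of groups overlapped, and the genes lay in opposite directions (0.39, standard error 0.14, adjusted p = 0.348 for RAVER2; -0.43, standard error 0.18, adjusted p = 0.595 for RAP2A). Neither passed after adjustment, where 0.326% of genes were called higher and 0.122% lower. Both had an unadjusted p under 0.05, and before adjustment 168 of the 7367 genes counted as higher and 72 as lower. Groups wholly higher or lower were found for 8.16% and 3.77% of genes. EZH2 mRNA was lower with shEZH2#1 than with shEZH2#2 in these arrays (-0.35, adjusted p = 0.626), and 3 of 10 precursor markers were called higher.

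The mean differences with ATRA had one sign for CD2AP and mostly the other for the remaining genes. KIF21A had a lower mean with ATRA in 7 of 7 kinds of cells, with log2 differences from -0.73 (shEZH2#2) to -0.10 (Scr), and its groups did not overlap in 5 of them. RAVER2 was lower in 6 of 7 and RAP2A in 6 of 7, with the exception of Scr cells for both (0.34 and 0.06). CD2AP was higher in 7 of 7, from 0.04 (Scr) to 0.34 (untreated), though the groups overlapped in all but the untreated cells. The values in Scr cells moved with single arrays, and 3 of the 6 arrays behind them were of high median. Scr array 3 and Scr + ATRA array 2, named next, were not, and the part of the medians was not tested. As 1 array at a time was left out, the value in Scr cells ran from 0.22 (without Scr + ATRA array 2) to 0.53 (without Scr + ATRA array 3) for RAVER2 and from -0.16 (without Scr array 2) to 0.35 (without Scr array 3) for RAP2A, and that of CD2AP was -0.05 without Scr array 3. Without the arrays of high median, which left 1 Scr array and 2 with ATRA, it was 0.49 for RAVER2, -0.21 for KIF21A, 0.30 for CD2AP and -0.57 for RAP2A, so that the exception of RAP2A rested on those arrays. In GSK-343 cells the CD2AP value turned just negative without GSK-343 array 1.

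In cells given HKMTI-1-005, which the choice did not use, KIF21A fell with ATRA. It read 7.41, 7.44 and 7.49 with ATRA and 7.71, 7.89 and 7.90 without, a log2 difference of -0.39 (standard error 0.10, limma adjusted p = 0.0188), again a fold of 1.31. It was the 1 of 4 genes called, where 2.38% of genes were called higher, 1.67% were called lower and 13.1% lay wholly lower. The call was lost on leaving out HKMTI-1-005 array 2 (-0.36, adjusted p = 0.110) or 3 (-0.35, 0.0880), or HKMTI-1-005 + ATRA array 1 (-0.37, 0.0898) or 2 (-0.38, 0.0692), and with centring on array medians (-0.37, 0.132). Beside it, 1 of 10 precursor markers was called higher and 1 lower. RAP2A read 7.70, 7.80 and 7.95 with ATRA and 8.23, 8.22 and 8.15 without, which also did not overlap (-0.38, standard error 0.18, adjusted p = 0.403). RAVER2 (-0.26, adjusted p = 0.473) and CD2AP (0.12, adjusted p = 0.770) had overlapping groups.

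In untransduced cells 0 of the 4 genes were called with ATRA, where 1.33% of genes were called higher and 0.801% lower. An unadjusted p under 0.05 was held by 3 of the 4, among them KIF21A at a fold of 1.15, under the threshold. Before adjustment 245 of the 7367 genes counted as higher and 341 as lower. RAVER2 read 6.80, 6.76 and 6.75 with ATRA and 7.32, 7.04 and 7.12 without, with no overlap (-0.39, standard error 0.14, adjusted p = 0.225). RAP2A read 7.95, 8.04 and 7.65 against 8.69, 8.16 and 8.19, also without overlap (-0.47, standard error 0.18, adjusted p = 0.308), as 10.3% of genes lay wholly lower. The RAP2A difference was -0.30 without untransduced array 1. KIF21A differed by -0.20 (adjusted p = 0.499) and CD2AP by 0.14 (adjusted p = 0.688). Without the array of high median among these, the differences were -0.38 for RAVER2, -0.26 for KIF21A, 0.12 for CD2AP and -0.36 for RAP2A, with 0 called. The ATRA difference of KIF21A in HKMTI-1-005 cells minus that in untransduced cells was -0.19 (95% interval -0.47 to 0.09, adjusted p = 0.998; -0.13 without the array of high median), so that a change in the ATRA response was not shown, and this term was called for 0 of the 4 genes (0 at an unadjusted p under 0.05) and 0% of genes. These cells came from different experiments, which cannot be told apart from the inhibitor.

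ATRA differences in the remaining cells are given as a description, since those arrays had a part in the choice. Among KD cells KIF21A was 1.60-fold lower with ATRA (-0.68, standard error 0.07) and RAP2A 1.67-fold lower (-0.74, standard error 0.13), and all 6 arrays with ATRA lay below all 6 without for both, as did those of 4.07% of genes. Without the arrays of high median they were -0.67 and -0.78. With GSK-343 the differences were -0.54 for RAVER2, -0.40 for KIF21A and -0.46 for RAP2A, each without overlap (21.9% of genes lay wholly lower), and 0.09 for CD2AP. The mean with both agents lay between those with either alone for RAVER2, KIF21A and RAP2A. In cells without inhibitor they were -0.38 for RAVER2, -0.45 for KIF21A, -0.30 for RAP2A and 0.34 for CD2AP, each without overlap (24.9% of genes wholly lower and 17.3% wholly higher), and the RAP2A value was -0.20 without untreated array 1. In these cells the precursor markers differed with ATRA too. Of 10, limma called 4 lower and 1 higher with GSK-343 (median difference -0.51), where 7.06% of the 7367 genes were called lower and 3.35% higher. Without inhibitor it called 3 lower and 2 higher (-0.46), beside 7.85% and 5.23% of genes. In KD cells it called 1 lower and 1 higher (0.04), beside 6.35% and 7.7%. The part of these markers in the values of the 4 genes was not tested.

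**Figure D3:**
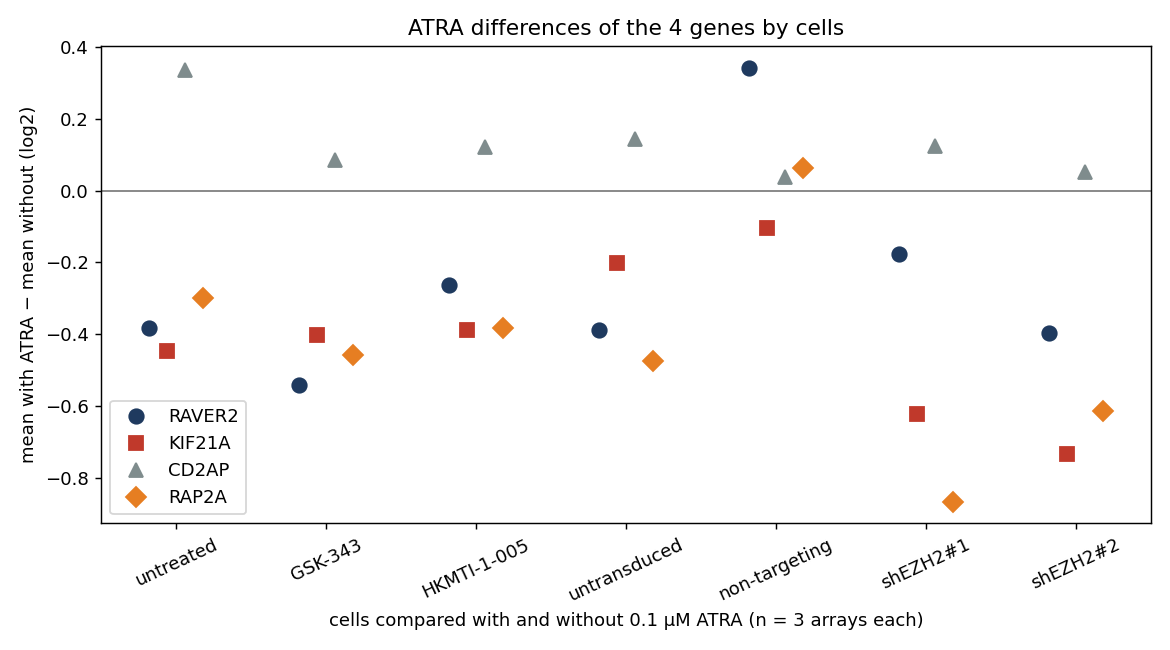
Difference between the mean log2 value with and without 0.1 µM ATRA (vertical axis) in 7 kinds of cells (horizontal axis) for the 4 genes, each point from 3 arrays against 3. KIF21A lies below 0 in all 7 (-0.73 to -0.10), CD2AP above 0 in all 7 (0.04 to 0.34), and RAVER2 and RAP2A lie below 0 except in the non-targeting cells.

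Set in order, the 14 group means of a gene formed ladders with few clear steps. The order mixes the inhibitor and the KD experiment, whose cells without agent or hairpin read differently. Untreated and untransduced cells had means of 6.84 and 7.16 for RAVER2, 7.80 and 8.04 for KIF21A, 8.84 and 8.97 for CD2AP and 7.89 and 8.35 for RAP2A. A step between groups of different experiments cannot be told apart from the experiment. RAVER2 ran from 6.45 (ATRA) to 7.63 (GSK-343), and of its 13 steps between neighbours 2 exceeded the residual SD, the largest of them 0.36 from shEZH2#1 to GSK-343. KIF21A ran from 7.35 (ATRA) to 8.29 (GSK-343) with 3 such steps, of which the one from Scr (7.61) to untreated cells (7.80) was the largest at 0.19. Its 5 lowest groups were all with ATRA. CD2AP ran from 8.84 (untreated) to 9.40 (GSK-343 + ATRA) with 1 step past the residual SD, and RAP2A from 7.49 (shEZH2#1 + ATRA) to 8.54 (shEZH2#2) with 0. All other neighbours differed by less than the residual SD.

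KIF21A and RAP2A had the most like patterns of the 4 genes. Over the 14 group means their Pearson r was 0.92 (0.93 over the 6 inhibitor groups and 0.93 over the 8 KD groups), and each was the gene most like the other among the 7367. RAVER2 correlated at 0.78 with KIF21A and 0.71 with RAP2A, whereas CD2AP correlated with the others at 0.33 (RAVER2), 0.04 (KIF21A) and -0.01 (RAP2A). The groups share control arrays and scaling, and the genes were chosen for a shared rise, so these r are descriptions. The genes next most like each were USP53 (0.93), CCDC134, ABCD3 and SELENOK for RAVER2, SELENOS (0.91), SLC39A8 and SRPK2 for KIF21A, SVIP (0.88), MSRB2, CTSL and ZWINT for CD2AP, and SRA1 (0.90), LRP12 and EEFSEC for RAP2A. Of these, USP53 was higher with GSK-343 by 0.48 without ATRA and 0.29 with it, and SVIP by 0.69 and 0.39.

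The closest relatives of the 4 genes had GSK-343 differences near 0. The log2 difference between GSK-343 and untreated cells was -0.02 for RAVER1 (standard error 0.18), 0.04 for KIF21B (0.18), -0.07 for SH3KBP1 (0.11), -0.09 for RAP2B (0.10) and 0.08 for RAP2C (0.11), and each had overlapping groups. With ATRA added to both sides they ran from -0.01 (SH3KBP1) to 0.12 (RAVER1). Like KIF21A, KIF21B, the other kinesin of its pair, had lower means with ATRA. In untransduced cells it was 8.34, 8.11 and 8.43 with ATRA and 9.17, 9.29 and 9.53 without, a log2 difference of -1.04 (standard error 0.18, limma adjusted p = 0.000945). In HKMTI-1-005 cells its difference was -0.87 (adjusted p = 0.00343). RAVER1, the other RAVER protein, was higher with KD + ATRA than with Scr + ATRA by 0.53 (standard error 0.15, adjusted p = 0.0473), and by 0.14 against untransduced cells with ATRA (adjusted p = 0.805). Without the arrays of high median the RAVER1 call was lost (0.37, adjusted p = 0.0656), while that of KIF21B in untransduced cells was kept (-1.10). RAP2B was lower with ATRA in HKMTI-1-005 cells at an adjusted p of 0.0362, but its difference of -0.37 stayed under the fold threshold.

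**Figure D4:**
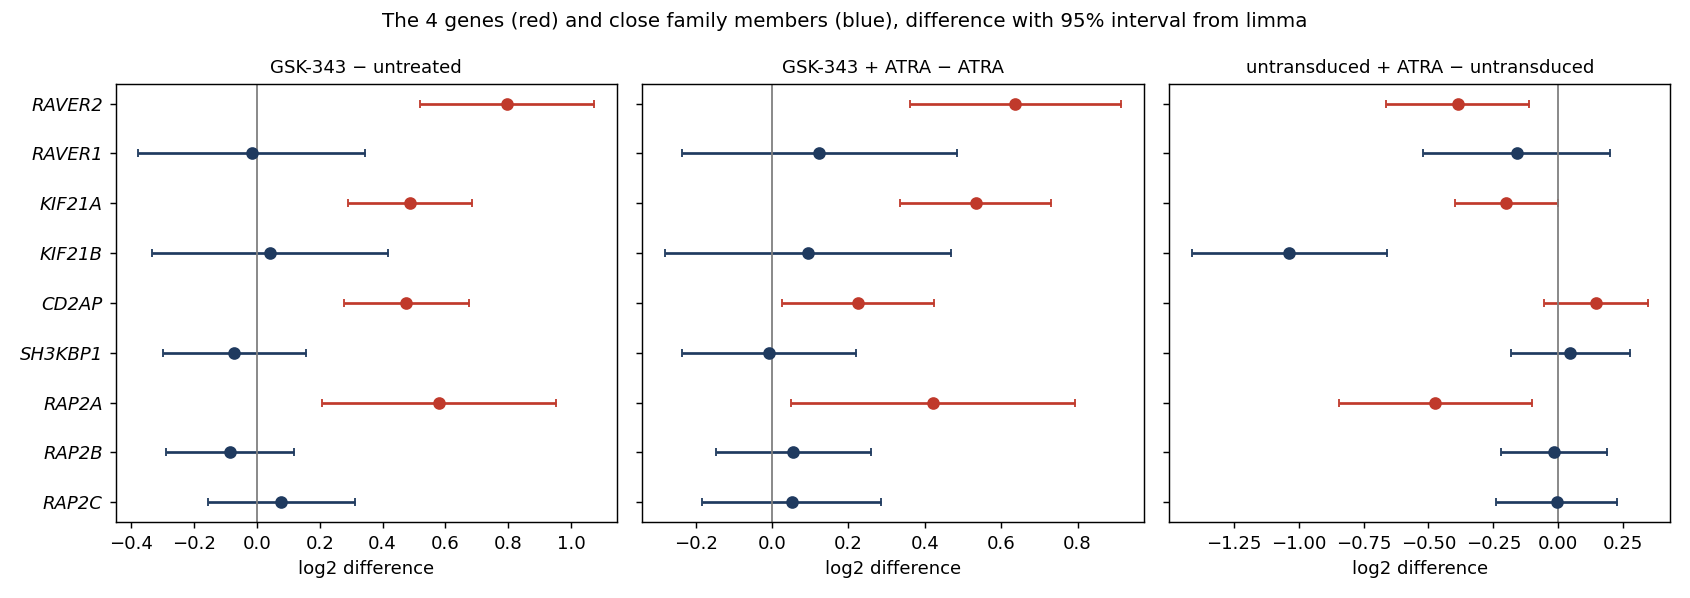
Log2 differences with 95% interval from limma (horizontal axes) for the 4 genes (red) and 5 close relatives (blue) with GSK-343 without ATRA, with GSK-343 in the presence of ATRA, and with ATRA in untransduced cells. The relatives lie between -0.09 and 0.12 in the GSK-343 panels, where the 4 genes lie between 0.23 and 0.80, and KIF21B lies at -1.04 in the ATRA panel.

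The wider pathways were read from gene lists without the 4 genes. The list around RAVER and PTB holds splicing regulators and also other genes, such as VCL. Between KD + ATRA and Scr + ATRA, where 3.39% of all genes that could be called were higher and 1.98% lower, 2 of 18 genes of this list were called, both higher. These were RAVER1 and VCL (0.59, adjusted p = 0.0316), which encodes the adhesion protein vinculin, and the list's median difference was 0.14 against 0.01 over all genes. Of 20 CD2AP adaptor and endocytosis genes, 4 were higher, DENND1A (0.69, adjusted p = 0.000267), SH3GL1 (0.75, adjusted p = 0.000512), CD58 (0.72, adjusted p = 0.0121) and RIN3 (0.65, adjusted p = 0.0299). Of 18 RAP pathway genes 1 was higher, the RAP effector RASSF5 (0.45, adjusted p = 0.0362), and of 17 kinesin and KIF21A partner genes limma called 0 (2 of 36 measured had an unadjusted p under 0.05).

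Against untransduced cells with ATRA, CD58, the ligand of CD2, was also called (0.75, adjusted p = 0.0121), while the other genes were not, and the difference between the controls was tested for each gene only as Scr + ATRA minus untransduced + ATRA. The differences there were 0.38 for VCL (adjusted p = 0.286), 0.27 for DENND1A (adjusted p = 0.266), 0.08 for SH3GL1 (adjusted p = 0.883), 0.47 for RIN3 (adjusted p = 0.182) and 0.15 for RASSF5 (adjusted p = 0.716). SH3GL1, an endophilin gene, was itself lower in Scr than in untransduced cells with ATRA (-0.67, adjusted p = 0.0199; 0.258% of genes were called higher and 0.733% lower), and this call was kept without the arrays of high median (-0.69). Without those arrays the Scr + ATRA comparison kept the calls of CD58 (0.87), DENND1A (0.59) and SH3GL1 (0.61) and lost those of VCL (0.45, adjusted p = 0.0931), RIN3 (0.58, adjusted p = 0.112) and RASSF5 (0.35, adjusted p = 0.194).

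In the remaining comparisons single list genes were called. KIF2A, a microtubule-depolymerizing kinesin, was the 1 of 17 kinesin genes lower with KD + ATRA than in untransduced cells with ATRA (-0.46, adjusted p = 0.00352; -0.46 without the arrays of high median), where 1.68% of all genes were called lower. KIF21B was the 1 of 17 lower with ATRA in untransduced and in HKMTI-1-005 cells (0.801% and 1.67% of genes), and APBB1IP, which carries RAP1 signals to talin, the 1 of 18 RAP genes higher with ATRA in HKMTI-1-005 cells (0.84, adjusted p = 0.0273; 2.38% of genes). A single called gene is too few for a result about lists this short, and nothing is read from it. Of 10 PRC2 genes, EZH2 was the 1 called, in both KD comparisons with ATRA. For GSK-343 without ATRA, limma called 0 genes of these lists (0.0136% of all genes were called higher and 0% lower). Those with an unadjusted p under 0.05 numbered 2 of 21 measured genes of the RAVER and PTB list, 0 of 36 kinesin genes, 0 of 26 adaptor genes, 1 of 34 RAP genes and 0 of 13 PRC2 genes.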

How the data were processed

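The 42 Human Gene 1.0 ST arrays (Affymetrix) held RNA of HL-60 cells. The authors normalized them with GC-RMA and removed batch and date effects in Partek Genomics Suite (versions not given in the sources used here), and the deposited values are on the log2 scale, as judged from their range (3.18 to 14.49). Batches are not named, so no batch term was fitted and what the removal took out could not be examined. No array was dropped, no array pair held identical values, and precision is limited by how many arrays there were.

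Of 33297 probe sets, 19460 carried 1 symbol, 1754 several and 12083 none. The probe set of highest mean stood for each gene. The 4 genes and the gene lists were chosen with earlier results of these data known. A model with 1 mean per group was fitted over the 42 arrays (limma 3.58.1, R 4.3.3, 28 residual and 3.37 prior degrees of freedom), with Benjamini-Hochberg adjustment over 18417 genes. A call needed an adjusted p of 0.05 or less, a fold of 1.3 or more and a mean in the top 40% (7367 genes, lowest mean 6.88). There were 8 tested comparisons. Another 10, which share arrays with the choice of genes, were described without p for the 4 genes, while EZH2, relatives and gene lists, which the choice did not use, kept their limma p. Named genes were the 4, EZH2, 5 relatives, the 4 genes of most like pattern for each, called list genes and markers. Genes next to the 4 in order of adjusted p with GSK-343 were named besides, after their values were seen.

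On simulated data with the spread of these arrays, 10%, 52%, 86% and 100% of genes changed 1.3-, 1.5-, 2- and 4-fold were called. This was for ATRA in untransduced cells, where 2 of 18217 unchanged genes, counted over the whole fit, were also called. Only 7367 of the 18417 genes passed the filter on the mean that a call needs, so most unchanged genes could not be called. Whether shifts shared by several arrays add false calls was not tested. The 2 calls thus give no rate of false calls for these data. Replicate numbers are not said to mark a shared batch. Deviations of same-numbered arrays correlated above 0.1 in all 3 pairs for GSK-343 or HKMTI-1-005 against untreated cells, for Scr against untransduced cells with ATRA and for the hairpins with ATRA. In the other comparisons only some pairs or none did. These were 4 of 6 for KD against Scr (up to 0.70), 2 of 3 for GSK-343 + ATRA against ATRA (up to 0.71), 2 of 3 for ATRA in untransduced or HKMTI-1-005 cells, and 0 of 6 for KD + ATRA against either control. Alternatives changed the fit, filter, fold, variance model, scaling, probe sets and test, and left out each array in turn. Fits without the 6 KD arrays of high median, or with the array median as a covariate, were added after seeing the data.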

Additional observations from a re-analysis of the deposited data

How the results depend on the processing

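The calls of the 4 genes held under the replicate block and the covariate. The mean over probe sets left their values as they were, since each had a single probe set, and is no check of them. With the replicate block KIF21A kept both calls (-0.39 with ATRA in HKMTI-1-005 cells, adjusted p = 0.0361, and -0.39 with KD + ATRA against untransduced + ATRA, adjusted p = 0.0156). These calls were lost under other choices. The ATRA call was lost with a trended robust variance (-0.39, adjusted p = 0.0523), quantile normalization (-0.38, fold under 1.3), centring on array medians (-0.37, adjusted p = 0.132), the methods' t-test after Benjamini-Hochberg (-0.39, adjusted p = 0.193), and on leaving out 4 of 6 arrays (-0.45 to -0.35 over all 6, -0.38 to -0.35 where lost). The KD call was lost with only the groups compared (-0.39, adjusted p = 0.113), quantile normalization (-0.38), centring (-0.37, adjusted p = 0.0702), the t-test after adjustment (-0.39, adjusted p = 0.285), without the 6 arrays of high median (-0.33, adjusted p = 0.0508), and on leaving out 4 of 9 arrays (-0.43 to -0.33 over all 9, -0.37 to -0.33 where lost). RAP2A with ATRA in HKMTI-1-005 cells (-0.38) became a call with 1 fit per experiment (adjusted p = 0.0234) and only the groups compared (adjusted p = 0.0474). The methods' unadjusted t-test also called it, RAVER2 with ATRA in untransduced cells (-0.39), and RAVER2 (0.39) and RAP2A (-0.43) between hairpins with ATRA. The cause of these changes was not tested.

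Leaving out 1 array at a time gave 0.46 to 0.74 for RAVER2 with GSK-343 + ATRA, -0.10 to 0.21 for RAVER2 with KD + ATRA against Scr + ATRA, and 0.53 to 1.04 for RAP2A with KD against Scr. Without the 6 arrays of high median, RAVER2 with KD + ATRA against Scr + ATRA was -0.10, and KD against Scr was 0.35 for KIF21A, 0.27 for CD2AP and 0.23 for RAP2A. Of the 4 genes most like each, those shared with the ranking over 42 arrays were 1 for RAVER2, 1 for KIF21A and 1 for CD2AP, and 2 for RAVER2 after centring.

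Counts of called genes moved by over 1.5 times. For ATRA in untransduced cells, 157 became 45 with only the groups compared, 102 with centring, 243 with no filter, 256 with the covariate, and 0 by the adjusted t-test (344 unadjusted). For ATRA in HKMTI-1-005 cells, 298 became 568 with 1 fit per experiment, 452 with only the groups compared, 499 with no filter, 501 with the covariate, and 13 by the adjusted t-test (715 unadjusted). For KD + ATRA against Scr + ATRA, 396 became 157 with 1 fit per experiment, 145 with only the groups compared, 262 with centring, and 7 by the adjusted t-test (803 unadjusted). For KD + ATRA against untransduced + ATRA, 242 became 119 with 1 fit per experiment, 18 with only the groups compared, 434 with the covariate, and 0 by the adjusted t-test (445 unadjusted). For Scr + ATRA against untransduced + ATRA, 73 became 24 with 1 fit per experiment, 0 with only the groups compared, 44 with centring, 129 with the covariate, 121 without the 6 arrays, and 0 by the adjusted t-test (209 unadjusted). The hairpin counts of 37 and 33 ran from 0 to 159 and from 0 to 176. The interaction could not be fitted within 1 experiment, and its count of 0 became 10 with no filter. Leaving out 1 array at a time, the counts ran from 90 (without untransduced array 3) to 149 for ATRA in untransduced cells, from 168 (without HKMTI-1-005 array 2) to 272 for ATRA in HKMTI-1-005 cells, from 137 (without Scr + ATRA array 3) to 498 for KD + ATRA against Scr + ATRA, from 87 (without untransduced + ATRA array 3) to 351 against untransduced + ATRA, from 28 (without Scr + ATRA array 3) to 99 for Scr + ATRA against untransduced + ATRA, and from 15 to 48 and 19 to 43 for the hairpins without and with ATRA. The shares of genes called that are set beside the 4 genes move with these counts.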
